A study of Mus musculus with 10 samples.

Results

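Pericentral liver spots were compared with periportal liver spots within 3 sections of mouse liver, NEJ638, NEJ654 and NEJ677, measured on 10x Genomics Visium slides. On such a slide, polyadenylated RNA of a thin frozen section binds to a grid of spots, each with its own barcode, and its molecules are counted by unique molecular identifiers (UMIs). A spot can hold several cells of different types or parts of them. A spot entered when it was called over tissue and held at least 2000 UMIs. Each such spot was given a score, log2 of the summed UMIs of Cyp2e1, Cyp1a2 and Oat plus 0.5 over the summed UMIs of Cyp2f2, Hal and Hsd17b13 plus 0.5. The spots of each section were cut by score into 5 parts of equal size, and the part with the highest score was taken as the pericentral side and that with the lowest as the periportal side. There were 667 spots a side in NEJ638, 474 in NEJ654 and 479 in NEJ677, so that 3240 spots were members, of 8111 spots with the score in these sections, 8537 tissue spots in them and 17281 tissue spots in the 6 sections of the series that have a tissue call. The spots were chosen by the 6 score genes, which were removed from all libraries and not tested. The UMIs of each side were summed over its spots, which gave 2 libraries a section, and the section was the replicate (n = 3).

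The series is a study of hepatoblastoma in mice in which a Cre recombinase driven by the albumin enhancer and promoter releases a human MYC transgene, on a C57BL/6J background. Its 10 sections come from 7 tissues, of which the study counts 3 as healthy livers. The labels of the 3 sections give hepatoblastoma as tissue and their protocol names tumour or normal liver without saying which, while a figure of the study shows NEJ638, NEJ654 and NEJ677 as normal liver. Littermates without 1 or both transgenes served the study as normal controls. The genotype, age and sex of each of these 3 mice are not given in the sources used here, and no experimental treatment is named. For the spatial sections the study describes anaesthesia with avertin, then perfusion through the heart with EDTA in saline and with collagenase type IV. That text speaks of the MYC mouse, and whether these 3 livers were perfused is not stated. Each section is 10 micrometres thick and comes from a separate tissue, and p-values take these 3 tissues as replicates. The test estimates a gene's spread partly from other genes. An SE can therefore be smaller than the 3 section differences of that gene alone would give, as for H19 and Marco below.

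A liver lobule runs from portal tracts, where blood rich in oxygen and nutrients enters beside bile ducts, to a central vein, where it leaves. Hepatocytes along this path share their identity but divide the work: those near the portal tract are known for urea synthesis, glucose production and amino acid breakdown, and those near the central vein for glutamine synthesis, drug metabolism and bile acid synthesis. Wnt ligands from the endothelium of the central vein keep the pericentral programme on through beta-catenin, and the layer of hepatocytes that touches the vein is the classical site of glutamine synthetase.

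The summed libraries held between 7920332 and 12736613 UMIs without the score genes, and those of the periportal side were the smaller in each section. Median UMIs per spot were 17123 on the pericentral and 12621 on the periportal side of NEJ638, 21762 and 18174.5 in NEJ654, and 16997 and 15711 in NEJ677, so depth moved with the side. With the sides taken within 5 bins of spot depth, where the medians of the sides were within 200 UMIs of each other, 898 and 978 genes were called. Mitochondrial genes took 2.31%, 2.71% and 2.27% of the UMIs of the pericentral side and 3.04%, 3.43% and 3.18% of those of the periportal side. Albumin (Alb) made up between 51663 and 85700 UMIs per 1000000 (CPM) of all tissue UMIs, whereas Igf2 and Dlk1, genes high in hepatoblastoma, had 6 to 10 and 1 to 7 UMIs a section. The spots called off tissue held 27.3%, 43.0% and 39.5% of the UMIs of the 3 sections, with medians of 11895, 10460 and 10721 UMIs a spot. The score varied less among them (SD 0.843, 0.976 and 0.850 over spots with at least 2000 UMIs) than among tissue spots (1.75, 1.77 and 2.07). The part of RNA that had spread over the slide in the differences below was not tested. The sections use the same 4991 spot barcodes, which are those of the slide design and mark positions, not cells.

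The sides lay in patches. Of the tissue spots with at least 2000 UMIs adjacent to a pericentral spot, 44.2%, 50.5% and 47.6% were pericentral themselves and 3.35%, 3.30% and 2.07% were periportal, where each side made up close to 20% of the spots. Around a periportal spot, 40.8%, 48.1% and 45.2% were periportal. The scores just inside and outside the pericentral side were 2.98 and 2.98 in NEJ638, 3.49 and 3.49 in NEJ654 and 2.99 and 2.99 in NEJ677, and at the periportal side -0.40 and -0.40, -0.02 and 0, and -1.22 and -1.22. As a description of the choice, Cyp2e1 was at 4644, 6425 and 5387 CPM on the pericentral side against 842, 1260.4 and 686 CPM on the periportal side.

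**Figure D1:**
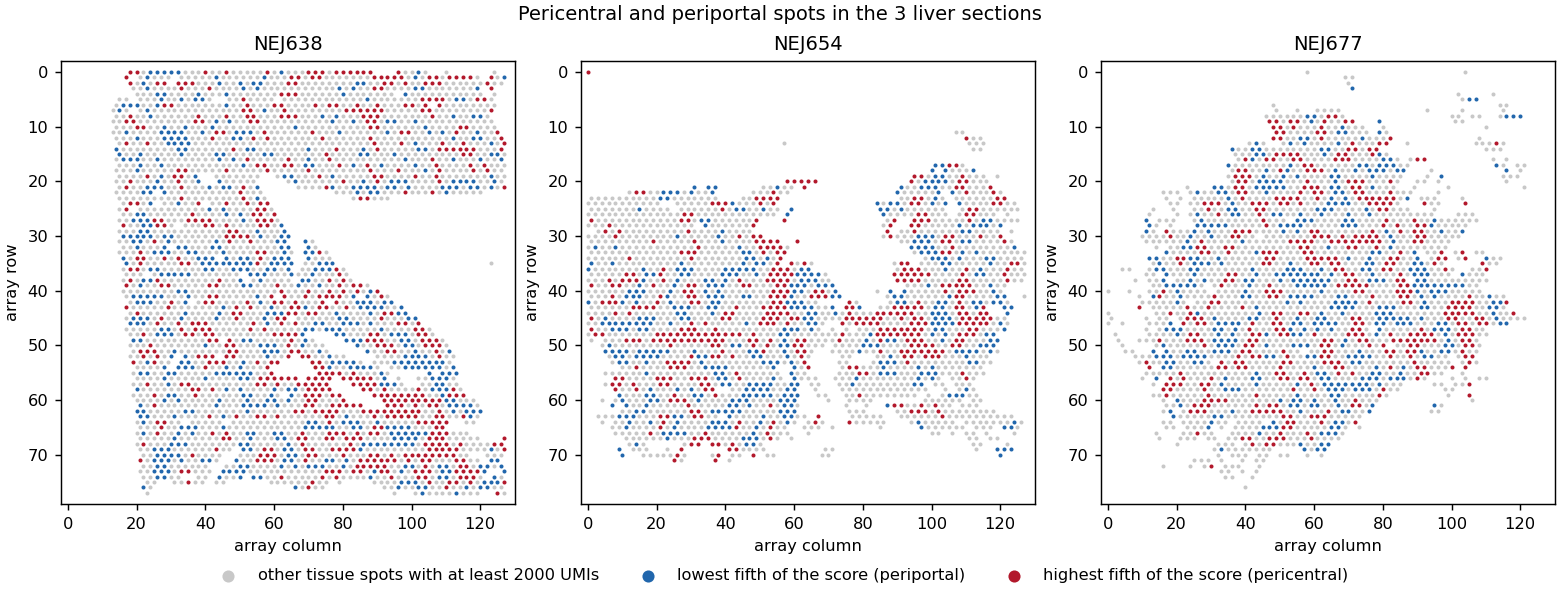
Position of the pericentral spots (red, 667, 474 and 479 spots) and periportal spots (blue, the same numbers) among the other tissue spots with at least 2000 UMIs (grey) in NEJ638, NEJ654 and NEJ677. The axes are the row and column of the slide's grid of spots, and both sides form patches scattered over each section.

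Of 11932 genes tested with edgeR's quasi-likelihood test, with the section as a block, 961 were called higher on the pericentral side (8.05% of those tested) and 1042 higher on the periportal side (8.73%) at a Benjamini-Hochberg adjusted p under 0.05. At least 2-fold differences were called for 184 genes on the pericentral side (1.54%) and 289 on the periportal side (2.42%). The median log2 difference over all genes tested was 0.00151, and all signed values below are pericentral minus periportal. Of the 2003 called genes, 1981 differed the same way in all 3 sections. Without scaling by TMM factors, which moved the median of all genes to 0.06, the calls were 1228 pericentral and 830 periportal, a pericentral share of 59.7% in place of 48.0%. Leaving out NEJ654 lowered the calls to 486 and 566, leaving out NEJ638 to 630 and 759, and DESeq2 called 443 and 457. When a spot was placed by the score of its adjacent spots and not by its own, 903 and 1107 genes were called, which held 81.8% of the pericentral and 81.8% of the periportal calls. Many spots stayed the same. In NEJ638, NEJ654 and NEJ677, 66.0%, 67.9% and 69.0% of these pericentral spots were also pericentral by their own score. On the periportal side the shares were 59.7%, 67.4% and 63.2%.

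**Figure D2:**
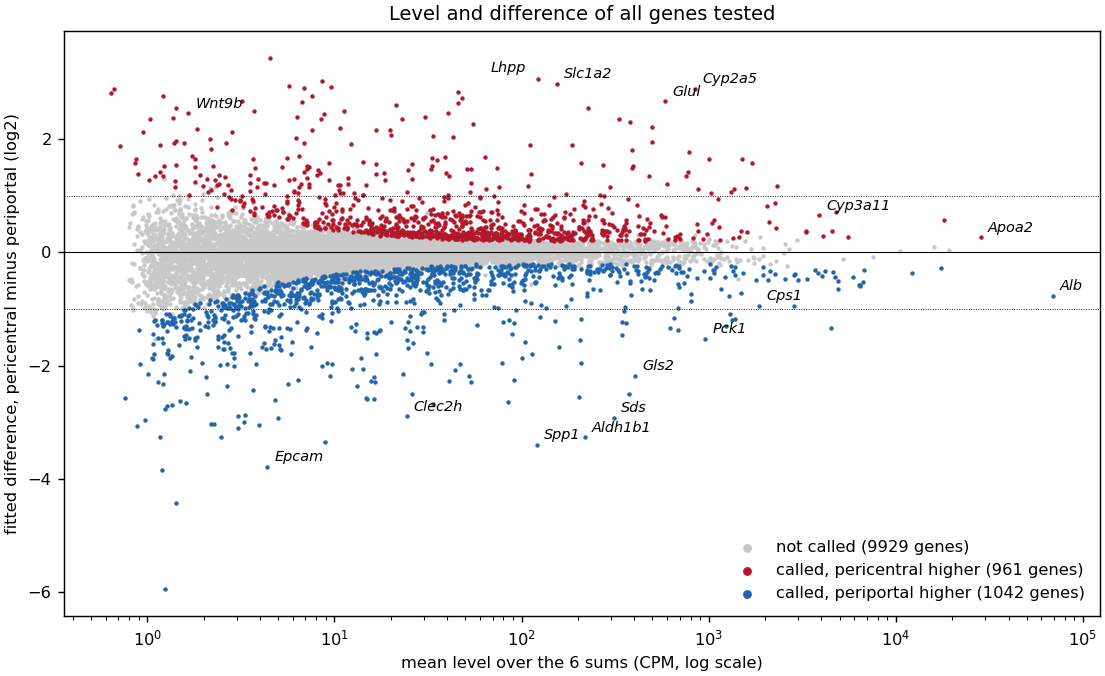
Fitted log2 difference, pericentral minus periportal, against the mean level over the 6 summed libraries (CPM, log scale) for 11932 genes. Red points are the 961 genes called pericentral and blue points the 1042 called periportal, and dotted lines mark 2-fold, with Lhpp, Slc1a2, Cyp2a5 and Glul labelled near the top and Aldh1b1, Spp1 and Epcam near the bottom.

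Among the 12 largest differences toward the pericentral side at a mean level of 20 CPM or more were those of Lhpp, Slc1a2, Cyp2a5, Rhbg, Slc13a3 and Glul. Glul, the glutamine synthetase (ENSMUSG00000026473, GRCm38 chromosome 1, 153899944 to 153909723), was at 792, 1259 and 993 CPM on the pericentral side and 129, 223 and 118 CPM on the periportal side of NEJ638, NEJ654 and NEJ677, the order in which values are given throughout. Every pericentral value was above every periportal one, and the log2 difference was 2.66 (SE 0.098, edgeR adjusted p = 1.6e-09). Slc1a2, which carries glutamate into the cell (ENSMUSG00000005089, chromosome 2, 102658659 to 102790784), was at 249, 336 and 238 against 31, 48.7 and 23 CPM, a difference of 2.97 (SE 0.097, adjusted p = 8.04e-10). Rhbg, an ammonium transporter, was at 83.1, 92.3 and 65.5 against 10.4, 14.8 and 7.7 CPM (2.82, SE 0.1). The largest difference among genes with a mean level of 20 CPM or more was that of Lhpp, a phosphatase (chromosome 7, 132610638 to 132706420), at 185, 239.8 and 229 against 22, 34.5 and 19.6 CPM (3.05, SE 0.11, adjusted p = 1.6e-09). In all 4 genes the sides did not overlap in CPM, which held for 9.79% of all genes tested in this direction (1168 genes) and 5.41% in the other (645 genes). These shares use CPM without TMM factors, unlike the calls. The lowest of the 12 section differences of the 4 genes was 2.40, that of Glul in NEJ654.

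The list of pericentral genes known to need Wnt and beta-catenin, drawn from earlier work on the same zonation so that its direction was known, had all 16 members tested and all 16 called higher on the pericentral side, 15 of them at least 2-fold, with a median of 2.37. Axin2, a feedback inhibitor of the pathway and its usual reporter, was at 11.4, 15.3 and 8.27 CPM on the pericentral and 1.07, 2.75 and 1.64 CPM on the periportal side (2.65, SE 0.21, adjusted p = 1.61e-06). Of other feedback inhibitors, Rnf43 differed by 1.56, Notum by 1.39 and Znrf3 by 0.89 on the log2 scale, and Nkd1 was at 11.6, 9.88 and 11.4 against 4, 3.85 and 3.28 CPM, 2.82-fold higher on the pericentral side. Tbx3, a transcription factor of the pathway, was at 41.5, 51.5 and 22.3 against 7.8, 11 and 3.16 CPM (2.35), and the stem cell receptor Lgr5 differed by 2.39. The largest difference of the list was that of Slc22a3, a transporter of organic cations, at 11.9, 8.35 and 4.56 against 1.27, 0.66 and 0.253 CPM (3.43).

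Promoters were searched for the core of the site that TCF and LEF factors, the partners of beta-catenin, bind, CTTTGAT on either strand, in the 300 bases from 250 before to 50 after the RefSeq start of each gene (GRCm38.p6). RefSeq start regions were at hand for 8 of the 16 list members, and 3 of them held the core, those of Sp5, Slc1a2 and Lect2. It was in 10 of 135 promoters (7.41%) of the genes called at least 2-fold higher on the pericentral side, in 3 of 198 (1.52%) of those called at least 2-fold higher on the periportal side, in 237 of 9321 (2.54%) of the genes tested, from which both sets come, and in 1006 of all 27025 (3.72%). The 10 are Acot1, Cyp2c29, Cyp2c39, Lect2, Selp, Slc1a2, Sp5, Teddm2, Gm35164 and 1700080G11Rik. The windows of Glul and Axin2 do not hold these letters, which says nothing of sites elsewhere. The 3 windows are shown, 5′ to 3′ along the gene's strand, because they belong to members of the list, with the core in capitals. The RefSeq start of Slc1a2 lies inside the gene as the GENCODE coordinates above give it. The core starts 104 bases before the start of Sp5 (chr2:70474673-70474972, plus strand), 207 before that of Slc1a2 (chr2:102706188-102706487, plus strand) and 32 before that of Lect2 (chr13:56548489-56548788, minus strand).
Sp5: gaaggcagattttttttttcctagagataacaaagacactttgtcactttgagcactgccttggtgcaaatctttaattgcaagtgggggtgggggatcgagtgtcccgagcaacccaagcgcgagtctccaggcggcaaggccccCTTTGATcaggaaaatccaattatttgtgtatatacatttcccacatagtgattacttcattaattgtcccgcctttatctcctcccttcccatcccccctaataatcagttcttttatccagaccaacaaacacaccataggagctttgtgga
Slc1a2: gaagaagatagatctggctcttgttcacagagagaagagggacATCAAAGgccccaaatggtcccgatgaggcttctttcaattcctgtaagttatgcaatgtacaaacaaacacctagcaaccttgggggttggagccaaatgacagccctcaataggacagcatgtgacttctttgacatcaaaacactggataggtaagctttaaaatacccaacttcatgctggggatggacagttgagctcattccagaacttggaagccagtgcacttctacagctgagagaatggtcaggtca
Lect2: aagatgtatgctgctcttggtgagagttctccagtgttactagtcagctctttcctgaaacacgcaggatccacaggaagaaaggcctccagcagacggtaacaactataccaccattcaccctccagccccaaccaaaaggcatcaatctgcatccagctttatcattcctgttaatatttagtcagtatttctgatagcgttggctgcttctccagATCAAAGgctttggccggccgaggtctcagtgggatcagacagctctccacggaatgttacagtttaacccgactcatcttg
Sites of other factors were counted in the same way. A part of the HNF4 site, AAAGTCCA, was in 6 of 135 promoters (4.44%) of 2-fold pericentral genes and 5 of 198 (2.53%) of 2-fold periportal genes. It was in 1.27% of those of tested genes and 1.25% of all. The cyclic AMP response element TGACGTCA was in 4 of 135 (2.96%) and 4 of 198 (2.02%), beside 3.27% of the tested genes and 1.88% of all. The HNF1 site was in 0 of 135 promoters of 2-fold pericentral genes, in 1 of 198 of 2-fold periportal genes, in 8 of 9321 of tested genes and in 32 of all 27025. The motifs were picked with the results known, and matches are descriptions of sequence.

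Genes of the central vein's endothelium, which supplies the Wnt signal, were higher on the same side. All 8 members of this marker list were tested and called pericentral, each at least 2-fold, with a median of 1.54. Wnt2, a ligand, was at 12.2, 14.4 and 15.9 CPM on the pericentral and 2.24, 2.75 and 3.03 CPM on the periportal side (2.34, SE 0.15, adjusted p = 2.28e-07). Rspo3, which makes cells more sensitive to Wnt, was at 10.3, 14.9 and 12.6 against 2.93, 3.19 and 1.77 CPM (2.16, SE 0.18), and its sides did not overlap either. Wnt9b, the other Wnt ligand of the list, was at 2.51, 1.92 and 4.08 against 0.585, 0.22 and 0.631 CPM (2.45). Fabp4, a fatty acid binding protein of endothelium, was at 86.1, 58 and 72.6 against 47.7, 22.5 and 31.2 CPM (1.06). Summed over the list, the level was 139.7, 112.7 and 131.4 CPM on the pericentral and 68.3, 37.9 and 45.7 CPM on the periportal side. In spots that hold several cells, more cells of a type and more RNA per cell cannot be told apart, here and for every cell type marker below. Markers of sinusoidal endothelium, the capillary lining between the zones, differed little: 2 of 10 were called pericentral, Stab2 (0.35) and Oit3 (0.31), both without a call in DESeq2, and the median was 0.04.

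Drug-metabolising cytochrome P450 enzymes were higher on the pericentral side for 20 of 32 members tested, 11 of them at least 2-fold, and higher on the periportal side for 3, with a median of 0.61. Cyp2a5, which oxidises coumarin and nicotine, was at 1512, 1162 and 1837 CPM on the pericentral and 224, 177 and 176 CPM on the periportal side (2.89, SE 0.11, adjusted p = 2.21e-09). Of the Cyp2c family, Cyp2c29 was at 1161, 1961 and 1427 against 441, 773 and 270.4 CPM (1.65), with a difference of 2.30 in NEJ677 against 1.41 and 1.25 in the others. Cyp2c37 differed by 1.94, Cyp2c67 by 2.04 and Cyp2c50 by 1.34. The sides of these 4 did not overlap, while those of other members, such as Cyp2c38, Cyp2c69 and Cyp2c54, did. Cyp3a11, the main target of the pregnane X receptor, differed less, at 3786, 4327 and 6556 against 2725, 2534 and 3517 CPM (0.66, SE 0.078, adjusted p = 6.98e-05). The 3 periportal members were Cyp2a4 at -1.58, Cyp2b10 at -1.10 and Cyp2a12 at -0.24. Cyp2a4 and Cyp2a5 are near-identical copies, as are many Cyp2c, Cyp3a and Gstm genes, so the split of reads between copies is uncertain. Of 2 receptors that switch on such enzymes, Nr1i3 (CAR) was at 146, 238 and 154 against 94.7, 146 and 58 CPM (0.83) and Ahr at 31.5, 29.2 and 19.5 against 13.9, 12.1 and 5.93 CPM (1.28).

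Conjugating enzymes, which attach glutathione, glucuronate or sulphate to drugs, were called pericentral for 19 of 33 members tested and periportal for 3, with a median of 0.25. The glutathione transferases of the Gstm cluster led, with Gstm2 at 484, 247 and 433 CPM on the pericentral and 94.4, 54.6 and 43.8 CPM on the periportal side (2.54, SE 0.15, adjusted p = 1.17e-07) and Gstm3 at 530.4, 334 and 819 against 153, 68.4 and 91.4 CPM (2.34). In Gstm1, Gstm2, Gstm3 and Gstm6 alike the difference was largest in NEJ677, at 1.78, 3.20, 3.06 and 2.03. Ugt2b38, a glucuronosyltransferase, went the other way, at 0.707, 0.384 and 4.32 against 1.37, 0.55 and 26.5 CPM (-2.33), as did Gsta2 (-0.62) and Sult1a1 (-0.30). The level of Ugt2b38 was low on both sides of NEJ638 and NEJ654, and its fitted difference came mainly from NEJ677.

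Genes of bile acid synthesis and transport were called pericentral for 10 of 22 members tested and periportal for 1, Abcb11, the pump that exports bile acids into bile (-0.32). Cyp7a1, the rate-limiting enzyme of bile acid synthesis, was at 150.2, 48.3 and 22.4 CPM on the pericentral side and 67.8, 12.9 and 5.56 CPM on the periportal side. The sides overlapped because NEJ638 was high on both, but the difference within sections was 1.16, 1.81 and 1.90 (fitted 1.47, SE 0.12, adjusted p = 2.4e-06). Cyp8b1, which sets the share of cholic acid, was at 79.1, 248 and 471 against 94, 238 and 318 CPM and was not called (adjusted p = 0.678). Slco1b2 and Slco1a1, uptake carriers of organic anions, differed by 1.42 and 1.39.

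Among enzymes of amino acid breakdown, Sds, the serine dehydratase that turns serine into pyruvate (ENSMUSG00000029597, chromosome 5, 120476526 to 120483932), was at 916, 389 and 343 CPM on the periportal side and 122, 57.6 and 45.6 CPM on the pericentral side (-2.91, SE 0.071, adjusted p = 6.56e-11). NEJ638 held the most on both sides, and no pericentral value reached a periportal one. Etnppl, which breaks down phosphoethanolamine, was at 119, 137 and 179 against 21.7, 23.6 and 26 CPM (-2.65, SE 0.087). Sdsl, a relative of Sds, differed by -2.27. Outside this list, Sfxn1, which carries serine into mitochondria, differed by -2.28, and Aldh1b1, a mitochondrial aldehyde dehydrogenase (ENSMUSG00000035561, chromosome 4, 45799022 to 45804604), was at 472, 394 and 309.7 against 55.6, 42 and 30.6 CPM (-3.26, SE 0.083, adjusted p = 7.7e-11). Over the list of 43 amino acid genes, all tested, 19 were called periportal and 8 pericentral, with a median of -0.16, so the list as a whole moved both ways. The enzymes after Hal in histidine breakdown were all periportal, Uroc1 at -1.22, Amdhd1 at -1.55 and Ftcd at -1.45, and the pericentral members included Csad of taurine synthesis (1.47), Asns, the asparagine synthetase (1.11), and Prodh of proline breakdown (0.83).

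The urea cycle, which turns ammonium into urea, was called periportal for 7 of 11 members and pericentral for 1, the glutamate dehydrogenase Glud1 (0.26), with a median of -0.49. Gls2, the liver glutaminase, which releases ammonium from glutamine and so runs opposite to Glul, was at 688, 690.3 and 581 CPM on the periportal and 168, 165 and 121 CPM on the pericentral side (-2.18, SE 0.078, adjusted p = 1.43e-09). Cps1, which starts the cycle, was at 3029, 2284 and 1961 against 1593, 1292 and 1046 CPM (-0.94, SE 0.068). Along the order of the cycle the differences were -0.94 for Cps1, -0.49 for Otc, -1.19 for Ass1, -0.97 for Asl and -1.37 for Arg1, with standard errors of 0.064 to 0.083. All 5 enzymes had higher values in each periportal library than in any pericentral one, as had 5.41% of all genes tested. Otc had the smallest difference of the 5.

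Glucose production was called periportal for 8 of 17 members and pericentral for none, with a median of -0.29. Pck1, the enzyme that commits carbon to new glucose, was at 2022, 917 and 1219.8 CPM on the periportal and 840.1, 268 and 476 CPM on the pericentral side (-1.52, SE 0.1, adjusted p = 2.65e-07). G6pc, which frees glucose for export, was at 207, 184 and 296 against 137, 95 and 176 CPM (-0.82), and Fbp1, of the same pathway, differed by -0.77. Of 14 members for glucose use, 3 were called pericentral and 2 periportal. Pklr, the liver pyruvate kinase, was at 57.9, 33.9 and 54.1 CPM on the pericentral and 53.1, 43.2 and 66.5 CPM on the periportal side and was not called (adjusted p = 0.185).

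Fat synthesis showed no common direction, with 3 of 18 members called on each side and a median of 0.04. Acly, which makes cytosolic acetyl-CoA, was at 211, 159.8 and 143 CPM on the periportal and 100.5, 68.3 and 72.9 CPM on the pericentral side (-1.15), and Srebf1, the master regulator, differed by -0.44. Me1, which supplies NADPH, was pericentral (0.75). Fasn, the fatty acid synthase, was at 449, 221 and 340.0 CPM on the pericentral and 407, 333 and 301 CPM on the periportal side and was not called (-0.15, SE 0.12, adjusted p = 0.496). NEJ654 differed by -0.69 and the other sections by 0.16 and 0.08, and Fasn was not called without NEJ654 either. Of 28 cholesterol genes, 7 were called pericentral and 3 periportal, with Fdps of the synthesis pathway the farthest on the pericentral side (0.37).

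Fatty acid oxidation and ketone body synthesis were called pericentral for 22 of 29 members and periportal for none, with a median of 0.36. Acot1, an acyl-CoA thioesterase, was at 64.1, 86.4 and 54.4 CPM on the pericentral and 9.66, 16.9 and 9.85 CPM on the periportal side (2.45, SE 0.099, adjusted p = 3.42e-09). The omega-hydroxylases Cyp4a10 and Cyp4a14 were at 468, 964 and 643 against 148, 369 and 284 CPM (1.35) and 508, 1126 and 868 against 181, 469.6 and 421 CPM (1.20). Most of the others were small: the called members of mitochondrial beta-oxidation, from Acads to Acadl, lay between 0.22 and 0.43. The respiratory chain went the other way. Of its mitochondrially encoded genes, 11 of 12 tested were called periportal, with a median of -0.42, and mt-Co1 was at 6654, 8949 and 7232 CPM on the periportal against 4619.7, 6442 and 4703 CPM on the pericentral side (-0.60). Of its nuclear genes, 13 of 48 were called periportal and none pericentral, with a median of -0.14 and the farthest value that of Atp5g1 (-0.35). Nuclear calls of this size were lost without NEJ654 for Atp5g1, Cox5b and Uqcrfs1.

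Secreted plasma proteins were called periportal for 30 of 54 members tested and pericentral for 4, with a median of -0.26. Albumin (Alb) was at 83577, 108130.0 and 63644 CPM on the periportal and 58764, 62866 and 35518 CPM on the pericentral side (-0.77, SE 0.1, adjusted p = 0.000146). C9, the last component of the complement pore, had the largest difference, at 121, 127 and 269 against 32.6, 37.9 and 90.6 CPM (-1.79), ahead of the heme carrier Hpx (-0.94). Fgb of fibrinogen (-0.41) and the complement protein C3 (-0.32) differed by less, and their calls, like that of Alb, were lost without NEJ654, that of C3 also with the score of adjacent spots. The corticosteroid carrier Serpina6 was pericentral at 797, 518 and 275 against 455, 301 and 131 CPM (0.83). Serpina7, the thyroxine carrier, was at 43.4, 31.5 and 80.6 against 11.9, 6.16 and 8.84 CPM (2.39). It is not on the list but among the 12 largest pericentral differences at a mean level of 20 CPM or more. Of 13 apolipoproteins, 4 were called periportal and 1, Apoa2, pericentral (0.26), a call lost without NEJ654 and with the score of adjacent spots. Apoa1, the main protein of HDL, was at 7243, 7186 and 8184 CPM on the pericentral and 7542, 7142 and 8176 CPM on the periportal side and was not called (adjusted p = 0.549).

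Of 20 genes of heme synthesis and iron handling, 8 were called pericentral, among them 5 of heme synthesis, and 4 periportal, all of iron handling. Alas1, which sets the rate of heme synthesis and supplies the P450 enzymes, was at 960.1, 84.7 and 198 CPM on the pericentral and 749, 58.7 and 112 CPM on the periportal side, far higher in NEJ638 than in the others, with a fitted difference of 0.51 (adjusted p = 0.000549). Hamp, hepcidin, the hormone that blocks iron export, was at 15.1, 1185 and 1409 CPM on the periportal and 5.18, 605 and 517 CPM on the pericentral side (-1.34, SE 0.099). NEJ638 thus held far less Hamp than the others, but its difference of -1.52 lay beside -1.06 and -1.55. Of 27 transcription factors of hepatocytes tested, 4 were called pericentral and 4 periportal, beside 8.05% and 8.73% of all genes tested. The 19 others were not called, Hnf4a among them at 188, 157 and 191 CPM on the pericentral and 214, 167 and 192 CPM on the periportal side (-0.15, adjusted p = 0.119). Of 15 genes of the oxygen-sensing response, 3 were called pericentral, Ndrg1 (1.67), Egln3 (1.31) and Pfkfb3 (1.15), and 2 periportal, Ddit4 (-0.78) and Vegfa (-0.29), the last lost in DESeq2. Ribosomal protein genes differed by little, with 4 of 45 called pericentral, beside 8.05% of all genes tested. Their median was 0.12, and none of these 4 was called in DESeq2.

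**Figure D3:**
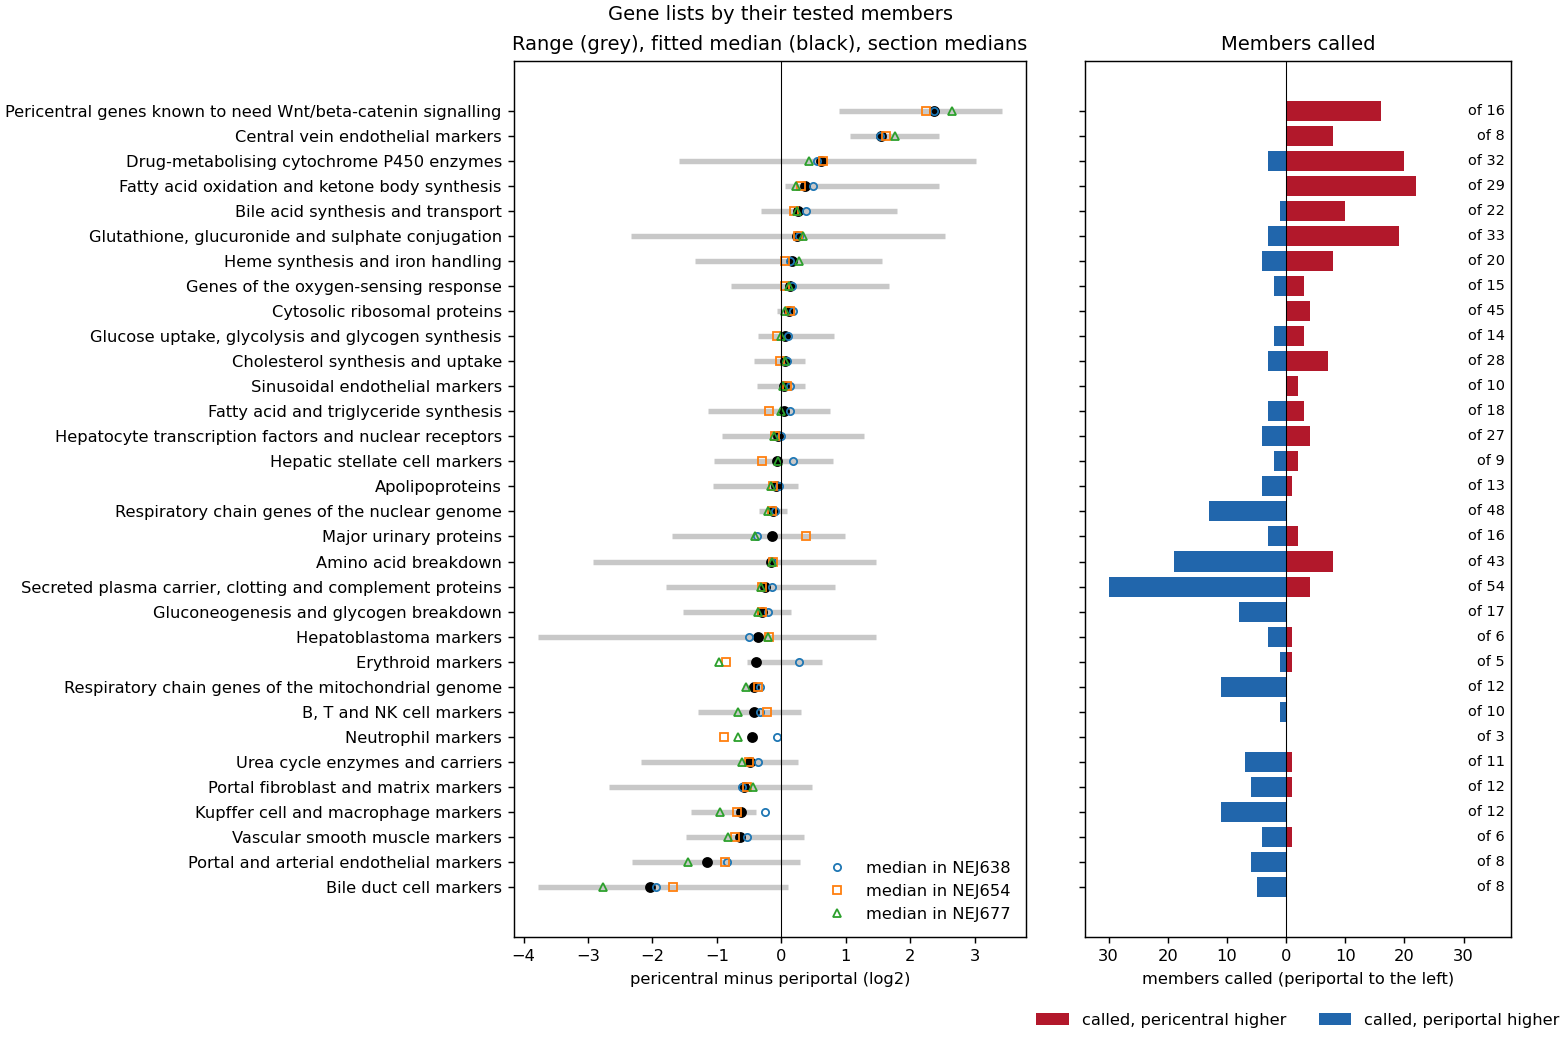
Gene lists by the log2 difference, pericentral minus periportal, of their tested members (left, with the fitted range in grey, the fitted median in black and open symbols for the median in each section) and by the number called in each direction (right). The Wnt target and central vein endothelial lists lie wholly to the right of 0 with medians of 2.37 and 1.54, and bile duct markers have the lowest median at -2.03.

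Cells of the portal tract marked the other end. Bile duct markers were called periportal for 5 of 8 tested, all at least 2-fold, with a median of -2.03, and the 3 others, Krt8, Krt18 and Anxa4, which hepatocytes also express in part, lay between -0.12 and 0.10. Spp1, osteopontin, made by bile duct cells (ENSMUSG00000029304, chromosome 5, 104435118 to 104441050), was at 332, 149 and 178 CPM on the periportal and 28.7, 16.7 and 18.3 CPM on the pericentral side (-3.39, SE 0.078, adjusted p = 6.56e-11), the largest difference in this direction among genes with a mean level of 20 CPM or more. Krt19, the duct keratin, was at 7.41, 3.3 and 3.03 against 2.12, 1.15 and 0.479 CPM (-1.87, SE 0.25). Epcam, an adhesion protein of duct cells, was at 13.1, 5.94 and 5.43 against 1.02, 0.384 and 0.36 CPM (-3.78). Krt7 had 93 UMIs over both sides of all sections and was not tested. Summed over all 11 duct markers, the level was 577, 488 and 796 CPM on the pericentral and 1105, 625 and 658 CPM on the periportal side, so the sum did not follow the defining duct genes in NEJ677, where Krt8 and Krt18 carry most of it. Portal fibroblast markers were called periportal for 6 of 12 and pericentral for 1, with Mgp at 102, 33.2 and 38.8 CPM on the periportal against 17.7, 5.95 and 4.2 CPM on the pericentral side (-2.68) and Gsn at -1.96. Their summed level was 783.5, 488 and 349.8 CPM on the pericentral and 926, 459 and 357 CPM on the periportal side. The pericentral sum was the higher in NEJ654, but CPM are not scaled by TMM factors, there 1.02 pericentral and 0.95 periportal. Scaled by these factors, the sums of NEJ654 would be close to equal. The median of the portal fibroblast markers, -0.58, became 0.03 among genes of at least 10 CPM. Dcn was pericentral (0.47), and the collagen Col1a1 was at 59.9, 18.5 and 12.5 CPM on the pericentral and 66.9, 13.6 and 9.97 CPM on the periportal side and was not called (adjusted p = 0.786). With the score of adjacent spots, Col1a1 was called periportal at -0.53. Of 6 smooth muscle markers tested, 4 were periportal and Mylk was pericentral (0.35). The calls of Mylk and of Tagln, periportal at -0.54, were both lost in DESeq2, that of Mylk also without NEJ654, with the score of adjacent spots and with only spots of 6 adjacent tissue spots, and that of Tagln also without NEJ638 and with narrower sides of 10% of the spots each.

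Arterial and portal endothelial markers were called periportal for 6 of 8 tested, with a median of -1.16. Dll4, a Notch ligand of arterial endothelium, was at 6.73, 7.15 and 6.31 CPM on the periportal and 3.38, 2.88 and 1.8 CPM on the pericentral side (-1.34, SE 0.2, adjusted p = 0.00044). Kupffer cell and macrophage markers were periportal for 11 of 12, with a median of -0.63, and their summed level was 492, 920 and 844 CPM on the periportal and 399, 641 and 482 CPM on the pericentral side. Marco, a scavenger receptor, was at 28.6, 37.2 and 44.2 against 18.8, 13.9 and 8.87 CPM (-1.40), with section differences of -0.58, -1.51 and -2.41, and Clec4f, which marks Kupffer cells, was at 76.4, 164 and 135 against 61.7, 108 and 72 CPM (-0.66). Of 10 lymphoid markers tested, only Cd74, the class II chaperone that macrophages also express, was called (-1.29, at 84.9, 66.5 and 89.5 CPM on the periportal and 20.2, 40.9 and 45.8 CPM on the pericentral side). Pigr, which carries antibodies across duct cells and hepatocytes into bile, was at 228, 949 and 682 against 33.1, 225 and 119 CPM (-2.50). Stellate cell markers had 2 of 9 called on each side, with Reln at 0.80 and Pdgfrb at -1.04. The 3 neutrophil markers tested were not called, with S100a9 the farthest at -0.49 (adjusted p = 0.15), and 6 others held too few UMIs to be tested. Of 5 erythroid markers, Alas2 was pericentral (0.63) and the globin Hbb-bs periportal (-0.53), a call lost in DESeq2. The part of these cells in the hepatocyte differences above was not tested.

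**Figure D4:**
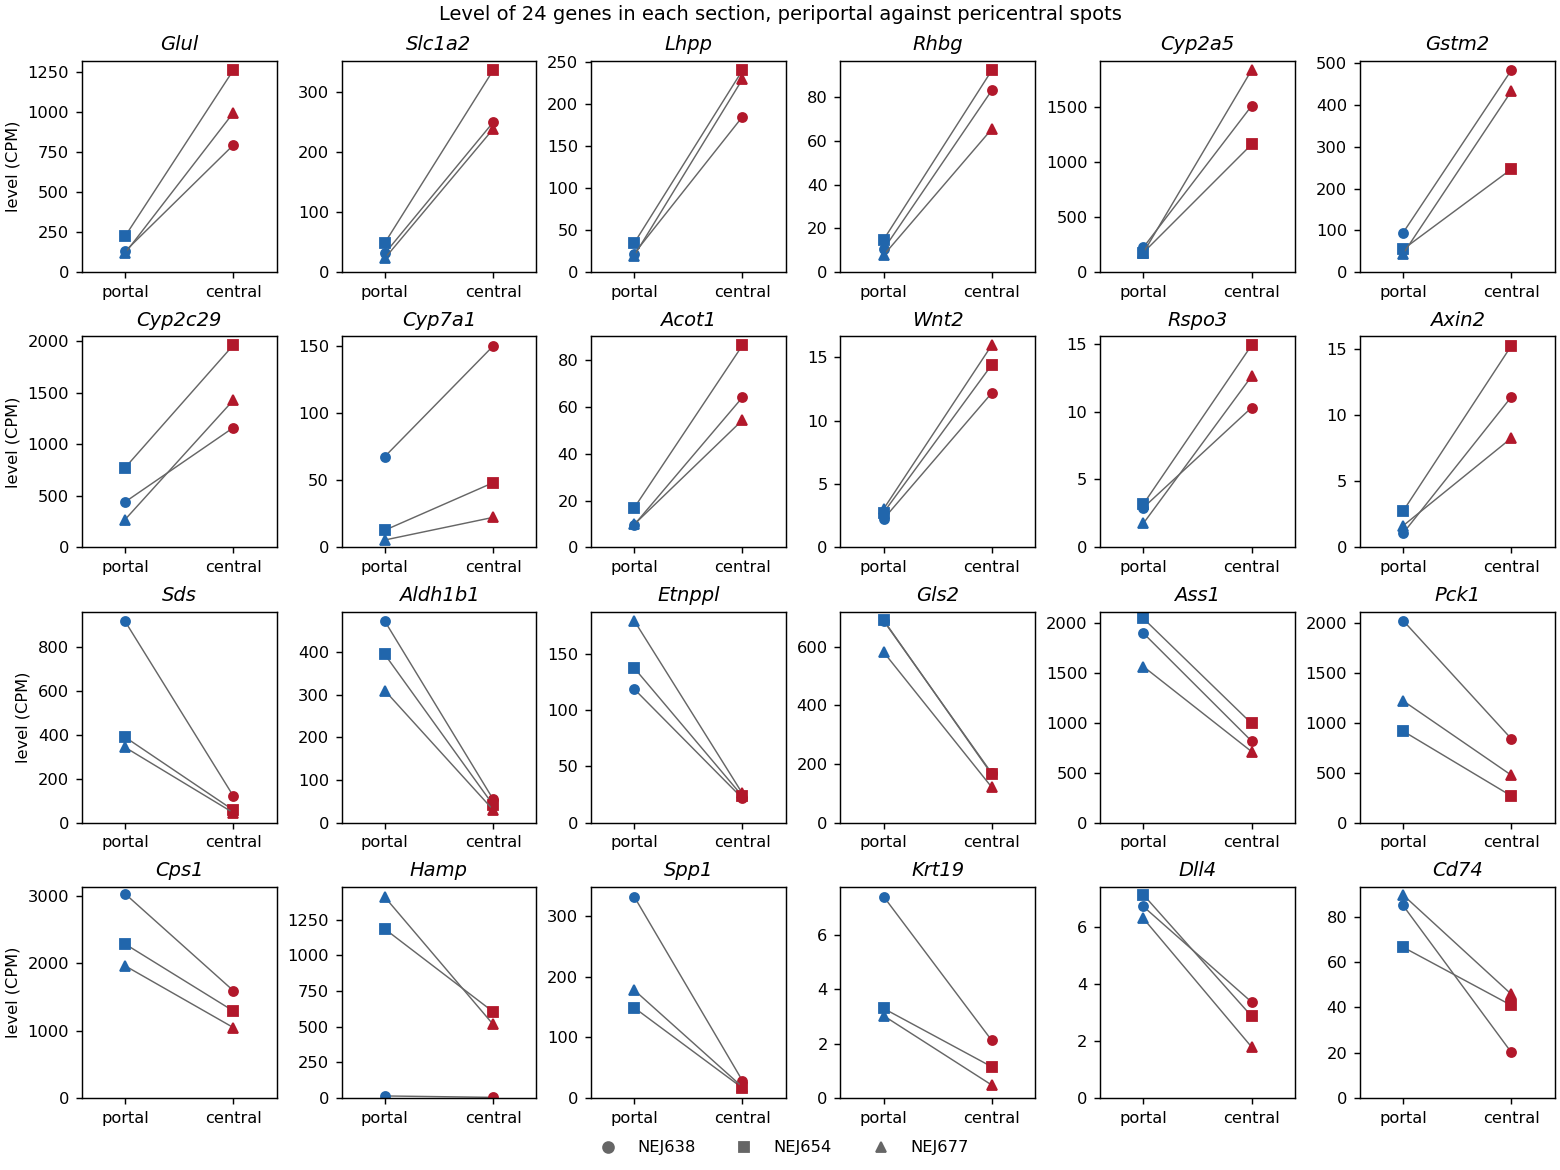
Level in CPM of 24 genes in the summed periportal (blue) and pericentral (red) spots of each section, with a line joining the sides of a section and symbols for NEJ638 (circles), NEJ654 (squares) and NEJ677 (triangles). The upper 12 genes rise toward the pericentral side in each section and the lower 12 fall, and Hamp in NEJ638 lies near 0 on both sides.

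The genes differed in how their level ran between the ends. When each of the 5 parts of the score was summed per section, Glul was at 157, 192, 237, 342 and 1015 CPM from the periportal to the pericentral part (means of 3 sections), so that 78.4% of its rise fell on the last step. Slc1a2 (82.9%) and Rhbg (77.9%) were as steep, and Cyp2c29 (37.9%), Cyp2c50 (28.2%) and Cyp7a1 (21.4%) rose more evenly. In NEJ677 Cyp7a1 did not rise on the last step, at 23.2 CPM in part 4 and 22.4 CPM in part 5. Among periportal genes, Aldh1b1 fell by 49.6% of its whole range on the first step and Spp1 by 47.1%, whereas Gls2 (17.3%), Cps1 (6.23%) and Aspg, an asparaginase (2.72%), fell less on that step. In NEJ654 Aspg rose on that step, from 344.5 to 355.7 CPM. Cps1 was at 2425, 2355, 2272, 1966 and 1310.4 CPM over the 5 parts, with most of its fall on the last step. Of the genes called at least 2-fold at a mean level of 20 CPM or more, the 66 pericentral ones had a median of 40.8% of their rise on the last step and the 65 periportal ones a median of 23.8% of their fall on the first, and 52 and 38 of them were in order over all 5 parts in each of the 3 sections. The mean level of a few genes peaked between the ends. Hamp2, a hepcidin copy, was at 857, 1021, 1077, 830.2 and 452 CPM and Hmgcs1, of cholesterol synthesis, at 396, 443, 503, 532 and 443 CPM, highest in parts 3 and 4, although Hamp2 was highest in part 1 in NEJ638. Neither peak shows in a comparison of the ends, where Hmgcs1 was not called (adjusted p = 0.328). The 5 parts come from the same spots and score as the sides, so these profiles are a description.

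**Figure D5:**
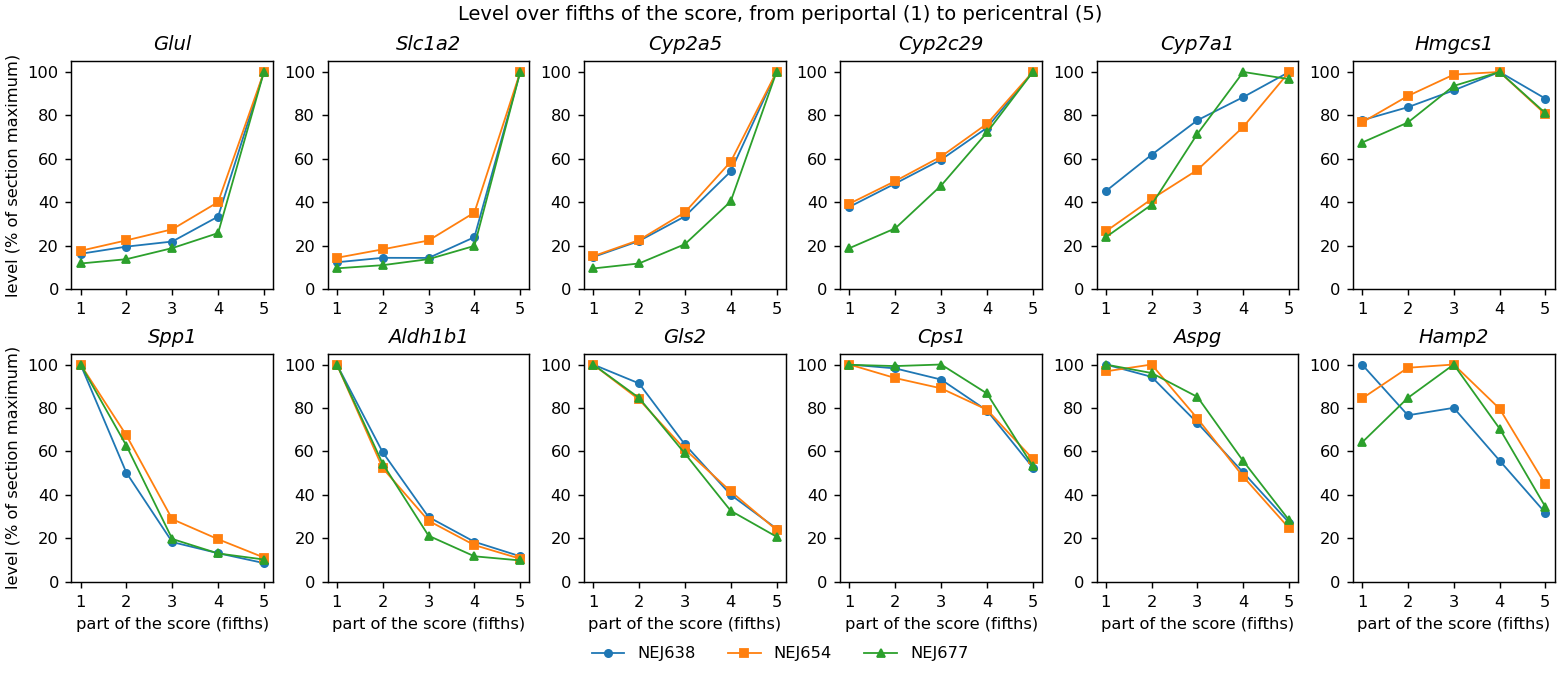
Level of 12 genes in each of the 5 parts of the score, from periportal (1) to pericentral (5), as a percent of the highest part of that section, with 1 line per section. Glul and Slc1a2 rise mainly from part 4 to part 5, Cyp2c29 rises at every step, Cps1 falls mainly at the last step, and Hmgcs1 is highest between the ends, as is Hamp2 except in NEJ638.

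The level of some zonated genes varied widely between the 3 sections. Over the called genes, the median difference toward the called side was 0.51 in NEJ638, 0.54 in NEJ654 and 0.58 in NEJ677 on the log2 scale, and 892 of the 2003 had their largest difference in NEJ677. In 22 called genes 1 section went the other way, some of them with no UMI on either side there. Cyp3a16 was at 20, 19.6 and 0 CPM on the pericentral and 3.02, 2.64 and 0 CPM on the periportal side, with no UMI on either side of NEJ677. Cyp4a12a, an omega-hydroxylase, was at 0, 4.89 and 156 against 0, 0.55 and 50.4 CPM (1.62), with no UMI on either side of NEJ638 and most in NEJ677. Its call was lost in DESeq2. Major urinary proteins, a cluster of near-identical genes, summed to 317, 3474 and 12530 CPM on the pericentral and 805, 5738 and 18960 CPM on the periportal side, and of 16 tested 2 were called pericentral, 3 periportal and 11 neither. Mup3 was periportal (-1.34) and Mup17 pericentral (0.99, but -0.05 in NEJ638), a call lost in DESeq2 and without NEJ654. Each section is 1 tissue of a mouse whose age and sex are not given in the sources used here, so differences between sections were not tested.

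Of the hepatoblastoma markers, 6 of 9 passed the filter on low counts, of which 1 was called pericentral and 3 periportal. Among these 3 is Epcam, at -3.78, which is also the duct marker reported above. Afp, alpha-fetoprotein, was at 18.7, 5.57 and 7.43 CPM on the pericentral and 4.98, 2.75 and 3.41 CPM on the periportal side (1.47, SE 0.2, adjusted p = 0.00018), and its means over the 5 parts were 3.71, 5.18, 4.95, 5.16 and 10.6 CPM. H19, an imprinted RNA of fetal liver, went the other way, at 141, 12.8 and 4.67 CPM on the periportal and 32.3, 2.78 and 3.48 CPM on the pericentral side (-1.98, adjusted p = 3.37e-06), with a difference of -0.52 in NEJ677. Igf2, Dlk1 and Gpc3 were not tested. Mki67, a marker of dividing cells, did not pass the test (0.03).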

How the data were processed

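Spatial RNA counts of 3 liver sections were used. The authors deposited unfiltered UMI counts per gene and spot, with a tissue call per spot whose method is not given in the sources used here. The submitters' processing notes name Space Ranger 1.3 and the build mm10, and the matrix headers name Cell Ranger 4. The other 7 sections enter no test: 3 are described under other observations, and 4, without a tissue call used here, were not analysed here.

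Tissue spots with at least 2000 UMIs were scored and the outer 2 of 5 parts summed per section, as the report states. CPM are counts per 1000000 of a library without the 6 score genes. Genes were tested with edgeR 4.0.16 (R 4.3.3; filterByExpr, TMM, quasi-likelihood F-test) with the section as a block, since both sides come from the same section. Benjamini-Hochberg adjustment ran over all 11932 genes. A gene was called at an adjusted p under 0.05, and at least 2-fold at a log2 difference of 1.0 or more. Section differences use 0.5 UMIs added to each count. No doublet caller was run on spots. Intervals of counting do not cover spread between sections.

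On simulated counts for this comparison (11771 genes), 76.12% of 67 genes changed by 0.5 on the log2 scale were called, 100% of 67 changed by 1 and 100% of 66 changed by 2, and 0.1123% of unchanged genes were called. The changed genes, fewer than the 2003 called here, were drawn above a minimum level. The counts were simulated with the spread estimated from these data. The recovery thus does not cover genes of the lowest levels.

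Named genes were the 12 with the largest difference in each direction (called, same sign in all sections, mean of at least 20 CPM), up to 4 called members of each of 32 gene lists (mean of at least 10 CPM) and fixed members. Members of lists outside this rule, such as Slc22a3, Wnt9b, Epcam, Uroc1, Csad, Cyp2a4 and Ugt2b38, and Cyp3a16 and Mki67, were named after their values were seen. The members, lists, motifs and tests were chosen with earlier results of these data known. Alternatives were DESeq2 1.42.0, limma-voom (limma 3.58.1), other scalings, filters, spot minimums, sizes of the sides and scores, and leaving out each section. Coordinates are of GRCm38, and promoters of RefSeq GRCm38.p6. Figures were drawn with matplotlib 3.10.9. Some members of the lists are not reported here.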

Additional observations from a re-analysis of the deposited data

Results flagged for a closer look

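Spots called off tissue, which no comparison above uses, held 27.3% of all UMIs in NEJ638, 43.0% in NEJ654 and 39.5% in NEJ677. Their origin was not tested.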

How the results depend on the processing

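Of 961 pericentral and 1042 periportal calls (184 and 289 at least 2-fold), DESeq2 made 443 and 457, with 183 at least 2-fold periportal. A minimum mean of 10 CPM left 82 and 89 calls of at least 2-fold. With no replicate block there were 45 and 53 calls, and 42 and 50 of at least 2-fold, and 97 of the 129 called named genes lost the call. Leaving out 1 section gave 486 to 914 pericentral and 566 to 984 periportal calls, the lowest without NEJ654, and 173 to 178 and 255 to 319 of at least 2-fold. The cause of these changes was not tested, though without a section fewer libraries enter. All other alternatives kept the 4 counts within 1.5 times. Col1a1, not called at 0.06, was called at -0.53 with the score of adjacent spots. The list median changed sign with a minimum mean of 10 CPM for portal fibroblast markers, and under at least 1 alternative for major urinary proteins, glycolysis and glycogen, lipogenesis, cholesterol synthesis, hepatocyte transcription factors, stellate and sinusoidal markers and tumour genes. Without a section, 9 (NEJ638), 23 (NEJ654) and 6 (NEJ677) of the 129 lost the call. Each section is 1 tissue, spots hold several cells, and depth differed between the sides.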

Other observations

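The same score was applied to the other sections with a tissue call, NEJ634, NEJ687 and NEJ723, which are tumours by the study's text. On both sides together, Cyp2e1 held 2587, 1777 and 21 UMIs there. Hsd17b13, a periportal gene of the score, held 12680, 19580 and 14880 UMIs on both sides together. This was more than any other score gene and most of the periportal sum of the score. That the sides are zones of a lobule there was not tested. Of the genes called at least 2-fold pericentral above and holding at least 20 UMIs on both sides together, 127 of 151 in NEJ634, 111 of 137 in NEJ687 and 47 of 99 in NEJ723 were higher on the side with the high score, with median log2 differences of 0.78, 0.50 and -0.01. Of the periportal genes, 141 of 259, 158 of 248 and 109 of 230 were higher on the side with the low score, with medians of -0.06, -0.10 and 0.01. Over all genes, 49.0%, 52.0% and 56.1% were higher on the side with the high score. Glul was at 150.8 against 60.5 CPM in NEJ634, 171.5 against 98.6 CPM in NEJ687 and 40.0 against 34.7 CPM in NEJ723. Genes periportal above went both ways. In the same order, Spp1 was at 394.8 against 272.5, 35.9 against 86.1 and 39.9 against 29.4 CPM. Ass1 was at 664.9 against 541.5, 1074 against 1103 and 548.2 against 542.7 CPM. Each is 1 section, so no test was made.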
